A study of Danio rerio with 6 samples.

Results

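Transcripts of the B cell receptor and of B lineage genes were followed in kidneys of runx1 null and wild type zebrafish. The genes were ighm, cd79a, cd79b, pax5, ebf1a, cd37 and blnk, looked up by zebrafish symbol or synonym with case ignored. Of these 7 genes, 6 matched 1 of the 32266 Ensembl identifiers each. The name ebf1a matched none, and 2 rows carry the symbol EBF1, so it could not be told which of them is ebf1a. All fish were of the EK strain and about 2.5 months old. The runx1 null fish carried the del25 (hg97) allele on both copies of runx1, the gene of a DNA-binding factor needed in blood formation, and the wild type fish were their siblings. Each genotype had 3 pools of 3 kidneys, and bulk RNA-seq was made from each pool. A pool averages its fish, and single fish cannot be told apart.

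Adult fish form their blood in the kidney, and a dissected kidney therefore holds developing and mature B cells beside other blood cells and renal tubules. A B cell recognises antigen with a membrane immunoglobulin, whose heavy chain in IgM is encoded by ighm. The chains encoded by cd79a and cd79b associate with that immunoglobulin in the membrane. They carry its signal through the kinases Lyn, Syk and Btk and the adaptor Blnk to phospholipase C gamma. In mammals the transcription factors Ebf1 and Pax5 commit lymphoid precursors to the B lineage and keep them in it, and a plasma cell shuts off Pax5 while it secretes large amounts of immunoglobulin. No sequences of these genes are shown, and no coordinates are given, because the count files carry identifiers only.

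The libraries held between 16147770 and 27480381 expected counts in runx1 null and between 23821763 and 30577328 in wild type. The deposited values were taken to be expected counts, which are model estimates of the reads of each gene. Levels below are CPM, counts scaled by TMM to a common library size. The transcript of the mutated gene was too rare to check the labels, with 0, 5 and 5 counts in the runx1 null pools and 8, 5 and 7 in the wild type pools (log2 fold change -1.01, SE 0.86, edgeR adjusted p 0.811). Of 18868 genes tested in edgeR, 0 passed an adjusted p of 0.05, and 989 had an unadjusted p below it. The labels do not say whether pools were dissected on separate days, so p-values measure the spread between these pools. A 3 against 3 exact permutation test of 1 gene, two-sided, can give no p under 0.1.

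Transcripts of the signalling chain cd79b were nearly absent from runx1 null kidneys, and those of cd79a, pax5 and cd37 were at lower means there, whereas ighm was split between the runx1 null pools. Of the 6 matched genes, 0 passed the adjusted threshold in edgeR, as for 0% of all genes tested. At an unadjusted p under 0.05 there were 2 of 6, cd79b and pax5, both lower in runx1 null, beside 5.24% of all genes tested, 2.67% lower and 2.57% higher. No overlap between the genotypes was seen for 1 of 6, cd79b, beside 6.25% of all genes tested that were lower without overlap. Only ighm, cd37 and blnk passed the filter on low counts, and their unadjusted edgeR p were 0.352, 0.13 and 0.396. The genes cd79a, cd79b and pax5 were tested in spite of the filter, to give each a value. Both genes under an unadjusted p of 0.05 are thus among those that failed it. Of the 18868 genes tested 18864 passed it, so the shares above are not of like genes. The genes followed here were also picked with earlier results of these data known. In bulk kidney, fewer B cells and less RNA per B cell cannot be told apart.

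cd79b (ENSDARG00000104691) encodes the Igβ chain of the receptor. It had 0, 0 and 1 counts in runx1 null pools 1, 2 and 3, against 10, 46 and 38 counts in wild type pools 1, 2 and 3. In CPM this was 0, 0 and 0.037 in the runx1 null pools and 0.482, 1.82 and 1.16 in the wild type pools. No runx1 null pool reached any wild type pool. A count of 0 allows up to 0.18 CPM in runx1 null pool 1 and 0.101 CPM in pool 2, taking 3 counts as the limit, so even the lowest wild type level lay above what those 2 libraries could have missed. Over the summed counts of each genotype, 1 against 94, the runx1 null level was 0.0115 times that in wild type, with an exact 95% interval of 0.000287 to 0.0654 that covers counting error only. The fitted log2 fold change was -5.97 (SE 1.04), and its size depends on the prior count at such low values. The edgeR adjusted p was 0.581, with an unadjusted p of 0.000752. The DESeq2 Wald test called 0.562% of all genes, 0.371% lower and 0.191% higher in runx1 null. There cd79b passed with an adjusted p of 0.00557, as 1 of the 6 genes. On simulated data this test, and to a lesser degree edgeR, made more false calls than the threshold allows. Only genes past the filter were simulated, so these data did not cover cd79b itself.

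cd79a (ENSDARG00000037473) encodes Igα, the partner with which Igβ forms the signalling pair. Its counts were 3, 1 and 7 in runx1 null pools 1, 2 and 3, against 3, 46 and 20 in wild type pools 1, 2 and 3. The levels were 0.18, 0.034 and 0.26 CPM in the runx1 null pools and 0.145, 1.82 and 0.608 CPM in the wild type pools. Wild type pool 1 thus lay among the runx1 null pools, and wild type pools 2 and 3 lay above all of them. Over summed counts, 11 against 69, the ratio of runx1 null to wild type was 0.172 (exact 95% interval 0.082 to 0.327, counting error only). In edgeR the log2 fold change was -2.44 (SE 1.06, edgeR adjusted p 0.811).

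pax5 (ENSDARG00000037383) encodes the transcription factor that holds cells in the B lineage. It had 0, 0 and 2 counts in runx1 null pools 1, 2 and 3, against 1, 30 and 11 counts in wild type pools 1, 2 and 3. The levels were 0, 0 and 0.074 CPM in the runx1 null pools and 0.048, 1.19 and 0.334 CPM in the wild type pools. The genotypes overlapped through wild type pool 1, whose single count lies below runx1 null pool 3. The summed counts of 2 against 42 gave a ratio of 0.0513 (exact 95% interval 0.00602 to 0.197, counting error only). Across the pools the fitted log2 fold change was -4.06 (SE 1.45, edgeR adjusted p 0.811, unadjusted p 0.027).

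The factor EBF1 acts upstream of Pax5 in mammals, and the 2 rows with its symbol did not follow pax5. The better measured row (ENSDARG00000099849) was at 3.59, 3.62 and 2.04 CPM in runx1 null pools 1, 2 and 3, against 1.69, 4.43 and 2.95 CPM in wild type pools 1, 2 and 3. These ranges overlap, and the fitted log2 difference was 0.03 (SE 0.48, edgeR adjusted p 0.991). The other row (ENSDARG00000069196) had at most 7 counts in any library and did not pass the filter. EBF1 is also used outside the blood in mammals, for example in fat and stromal cells, and which cells gave these reads was not tested.

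cd37 (ENSDARG00000075515) encodes a tetraspanin of the leukocyte surface, in mammals most abundant on mature B cells. It was at 1.20, 0.237 and 3.00 CPM in runx1 null pools 1, 2 and 3, against 1.69, 8.42 and 3.74 CPM in wild type pools 1, 2 and 3. Runx1 null pools 1 and 2 were below every wild type pool, and runx1 null pool 3 was above wild type pool 1. The mean was 1.48 ± 1.41 CPM in runx1 null and 4.62 ± 3.45 CPM in wild type (SD, n = 3 each). Fitted over the pools, the log2 fold change of cd37 was -1.64 (SE 0.95, edgeR adjusted p 0.811).

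blnk (ENSDARG00000042722), the adaptor below the receptor, was the most even of the 6 across pools. It was at 4.67, 7.44 and 5.23 CPM in runx1 null pools 1, 2 and 3, against 3.86, 12.2 and 7.30 CPM in wild type pools 1, 2 and 3. The runx1 null values all lay inside the wild type range. The log2 fold change was -0.43 (SE 0.47, edgeR adjusted p 0.828), and it was 0.05 without wild type pool 2. Blnk is also made by macrophages in mammals, and the summed level of 5 matched macrophage markers was 94.1 to 214 CPM in the runx1 null pools and 139 to 244 CPM in the wild type pools. Its part in the blnk level was not tested.

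**Figure D1:**
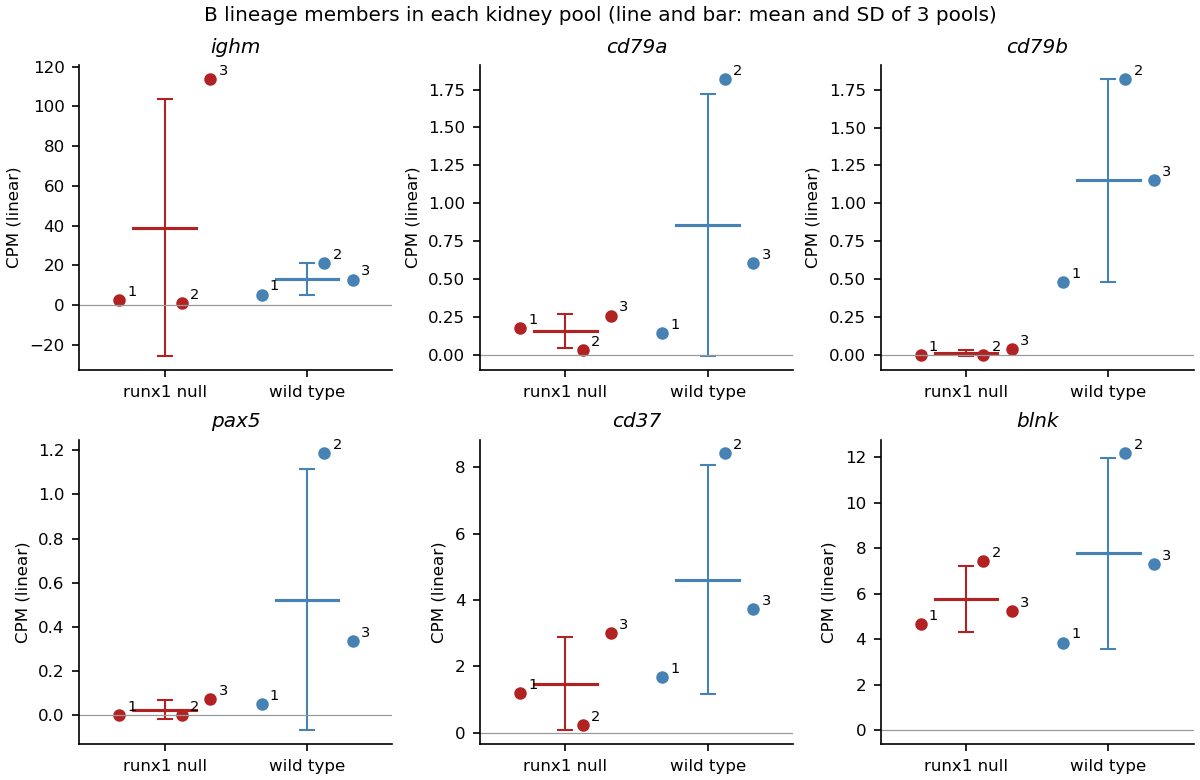
CPM on a linear axis of ighm, cd79a, cd79b, pax5, cd37 and blnk in runx1 null (red, left) and wild type pools (blue, right); numbers name the pool, the horizontal line is the mean and the bar the SD of 3 pools, which reaches below 0 where 1 pool dominates. Wild type pool 2 is highest for every gene except ighm, which is at 114 CPM in runx1 null pool 3, and only cd79b shows no overlap between the genotypes.

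Pools of one genotype varied widely for these genes. Wild type pool 1 was the lowest wild type pool for 6 of the 6 matched genes. Wild type pool 2 was the highest of all pools for 5 of them, with ighm as the exception. Among the runx1 null pools, pool 3 was the highest for 5 of 6, with blnk as the exception.

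ighm (ENSDARG00000096355), the constant region of the IgM heavy chain, had 39, 29 and 3066 counts in runx1 null pools 1, 2 and 3, against 109, 532 and 420 counts in wild type pools 1, 2 and 3. The levels were 2.33, 0.981 and 114 CPM in the runx1 null pools and 5.26, 21.0 and 12.8 CPM in the wild type pools. Runx1 null pools 1 and 2 were below every wild type pool, and runx1 null pool 3 was above all of them. The mean was 39.0 ± 64.7 CPM in runx1 null and 13.0 ± 7.90 CPM in wild type (SD, n = 3 each). For ighm this gave a log2 fold change of 1.58 with an SE of 1.59 (edgeR adjusted p 0.817). It turned to -2.98 (SE 0.78, edgeR adjusted p 0.992, unadjusted p 0.00837) without runx1 null pool 3. With all 6 libraries and the replicate number as a block it was -0.94 (SE 1.82, edgeR adjusted p 0.936), so its direction is not settled by these pools.

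The receptor chains did not accompany ighm in runx1 null pool 3. That pool had 3066 counts of ighm beside 1 of cd79b, 7 of cd79a and 2 of pax5, whereas wild type pool 2 had 532 of ighm beside 46, 46 and 30. Pancreas markers were also high in this library: the summed level of 9 matched enzyme genes was 392 CPM in runx1 null pool 3, 21.8 and 31.8 CPM in the other runx1 null pools and 26.4 to 36.8 CPM in the wild type pools. Among these 9, pdia2 was not raised, at 16.8 CPM in runx1 null pool 3 and 13.1 to 21.0 CPM in wild type. The kidney tubule sum was highest in runx1 null pool 3 too, at 1819 CPM against 200 to 1519 CPM in wild type. The tubule genes cdh17, which gave 1194 CPM of that sum, and slc12a1 were highest in that pool. The other matched tubule genes, lrp2a, cubn and slc12a3, were higher in wild type pool 2 than in runx1 null pool 3. The summed level of 8 liver markers was also highest there, at 18080 CPM against 35.3 to 4293 CPM in wild type, and runx1 null pool 1 had 11670 CPM with little ighm. The summed level of 12 T and NK cell markers was 27.2 CPM in runx1 null pool 3, 18.95 and 19.99 CPM in the other runx1 null pools and 17.6 to 19.5 CPM in the wild type pools. The part of these tissues in the ighm level was not tested.

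The other heavy chain constant genes did not follow ighm in that pool. ighd, which encodes the IgD heavy chain made beside IgM by naive B cells in mammals, had 4, 8 and 13 counts in runx1 null pools 1, 2 and 3, against 8, 41 and 26 in wild type pools 1, 2 and 3. The ratio of ighm to ighd counts was 9.75, 3.62 and 236 in the runx1 null pools and 13.6, 13.0 and 16.2 in the wild type pools. The exact 95% interval in runx1 null pool 3 was 138 to 443, while the upper bounds in the other libraries were at most 37.6 (counting error only). Since ighm is the numerator, the high ratio follows in part from the ighm count of that pool and is no separate result. In CPM, ighd was at 0.482 in runx1 null pool 3, the highest of the runx1 null pools, against 0.386 to 1.62 in the wild type pools. ight, the heavy chain of the teleost class IgT, had 4, 3 and 2 counts in runx1 null pools 1, 2 and 3, against 6, 36 and 47 in wild type pools 1, 2 and 3. All runx1 null levels of ight, 0.074 to 0.239 CPM, were below the wild type levels of 0.289 to 1.43 CPM. It did not pass the filter, and it was chosen after its values were seen.

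Light chain constant counts were highest among the runx1 null pools in pool 3, but they did not keep pace with ighm there. The 4 light chain constant rows igl1c3, igl3c3, igl4c1 and igic1s1 summed to 2, 16 and 99 counts in runx1 null pools 1, 2 and 3, against 38, 177 and 271 in wild type pools 1, 2 and 3. Per ighm count this was 0.0513, 0.552 and 0.0323 in the runx1 null pools and 0.349, 0.333 and 0.645 in the wild type pools. The interval was 0.006 to 0.198 in runx1 null pool 1 and 0.0262 to 0.0394 in runx1 null pool 3, and both lay below those of all 3 wild type pools, the lowest of which began at 0.234. That of runx1 null pool 2, 0.28 to 1.05, overlapped them (exact 95%, counting error only). Since ighm is the denominator, the low ratio of runx1 null pool 3 follows in part from its ighm count. The 6 light chain variable rows summed to 1, 0 and 36 counts in runx1 null pools 1, 2 and 3, against 9, 66 and 48 in wild type pools 1, 2 and 3. Of the 36, igl4v9 had 26. It had 0 counts in the other runx1 null pools and 0, 3 and 4 in wild type pools 1, 2 and 3. igl4v9 was picked after its values were seen. Light chain genes are closely related, and the estimated counts could have divided their reads, also among copies that have no row of their own.

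A single heavy chain variable segment dominated the ighv counts of runx1 null pool 3. Recombination assembles a variable segment into the heavy chain gene whose constant region is ighm, and each B cell clone keeps its own segment. The 35 rows named ighv summed to 4, 5 and 320 counts in runx1 null pools 1, 2 and 3, against 6, 47 and 39 in wild type pools 1, 2 and 3. ighv2-2 alone had 265 of the 320 in runx1 null pool 3, or 82.8% (exact 95% interval 78.2% to 86.8%, counting error only), and ighv14-1 had 51. ighv2-2 had 1 of 47 counts in wild type pool 2 and 0 in the other 4 libraries. Counts were found in 6 of the ighv rows in runx1 null pool 3, and in 16 rows each in wild type pools 2 and 3, which had fewer ighv counts in all. In wild type pools 2 and 3 the intervals of the ighv2-2 share ended at 11.3% and 9.03%, while runx1 null pools 1 and 2 and wild type pool 1 had at most 6 ighv counts, too few to compare. The 320 ighv counts of runx1 null pool 3 stood beside 3066 of ighm, so the share describes only the reads assigned to ighv rows. As for the light chains, the estimated counts could have divided reads among these rows, which the intervals do not cover. ighv2-2 and these shares were chosen after their values were seen.

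**Figure D2:**
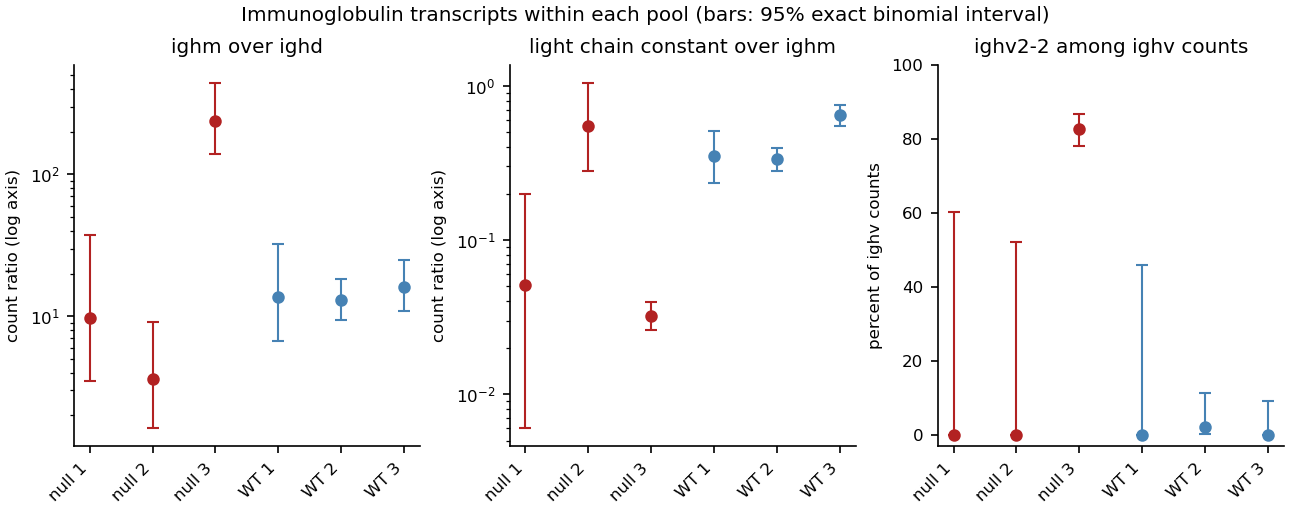
Ratio of ighm to ighd counts (left, log axis), ratio of light chain constant to ighm counts (middle, log axis) and share of ighv2-2 in all ighv counts in percent (right) for each runx1 null (red) and wild type pool (blue), with exact 95% binomial intervals for counting error. Runx1 null pool 3 stands apart in the left panel at 236 and in the right panel at 82.8%, and its light chain ratio of 0.0323, like that of runx1 null pool 1 at 0.0513, lies below every wild type pool.

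The wider B cell pathway was described with lists of immunoglobulin chains, receptor signalling, transcription factors, recombination, plasma cell and surface genes. Apart from the 6 genes above, 74 of their genes matched and 30 were tested. None of the 30 passed the adjusted threshold in edgeR (0 of 30, as for 0% of all genes). At an unadjusted p under 0.05, 4 of 30 were lower in runx1 null and 0 were higher, beside 2.67% and 2.57% of all genes tested. Of those 4, rag1 stayed at 5 counts or fewer in runx1 null and so passed the filter through wild type pools. Within runx1 null, igic1s1 and igl3c3 reached 12 counts only in pool 3, so their passing also rested on wild type pools. By contrast, irf8 reached at least 75 in every pool. The genotypes did not overlap for 3 of 30, all lower, beside 6.25% of all genes that were lower and 6.24% that were higher. A negative log2 fold change was found for 24 of 30, and for 52.1% of all genes tested. The median was -0.39 over the 30 genes and -0.03 over all genes tested. Because the lists were picked with earlier results of these data known, these shares only describe the 30 genes. They cannot test the lists against all genes.

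Among recombination genes, rag1 (ENSDARG00000052122), which encodes the enzyme subunit that cuts DNA in receptor assembly, was the gene with the smallest p. It was at 0.060, 0.034 and 0.185 CPM in runx1 null pools 1, 2 and 3, against 0.820, 3.36 and 1.76 CPM in wild type pools 1, 2 and 3. All runx1 null pools were below all wild type pools, and runx1 null pool 3 was low although its ighm was high. For rag1 the log2 fold change was -4.32 (SE 0.86, edgeR adjusted p 0.626). The DESeq2 Wald test gave an adjusted p of 0.0019, and that test made more false calls on simulated data than the threshold allows. rag2, the partner subunit, was at 0.398 ± 0.294 CPM in runx1 null and 0.884 ± 0.629 CPM in wild type (SD, n = 3 each), and its pools overlapped. The cytokine receptor gene il7r, which lymphoid precursors use in mammals, stood at 0.38 on the log2 fold scale (SE 0.44, edgeR adjusted p 0.833). Of the 4 genes listed, 3 were tested, and dntt had at most 3 counts in any library.

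Of the immunoglobulin rows, 47 matched and 6 were tested, with 4 of 6 negative. igic1s1, a light chain constant gene, was at 0.120, 0.034 and 0.445 CPM in runx1 null pools 1, 2 and 3, against 0.579, 2.18 and 1.61 CPM in wild type pools 1, 2 and 3. The genotypes did not overlap, and the log2 fold change was -2.82 (SE 0.93, edgeR adjusted p 0.811). For igl3c3, another light chain constant gene, runx1 null pool 3 at 0.445 CPM reached just above wild type pool 1 at 0.434 CPM, with a log2 fold change (SE) of -2.92 (1.12) and in edgeR an adjusted p of 0.811. The log2 fold change of ighd was -1.47 (SE 0.67, edgeR adjusted p 0.811).

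The kinases and enzymes below the receptor had log2 fold changes between -0.94 and 0.18, and none passed. Of the receptor signalling list, 15 genes were tested with a median log2 fold change of -0.32, and among those that are not listed above 0 had an unadjusted p under 0.05. The smallest p-values were those of ptpn6 and inpp5d, which encode the inhibitory phosphatases SHP-1 and SHIP-1, and of the kinase gene syk. ptpn6 was at 20.4 ± 5.47 CPM in runx1 null and 33.9 ± 10.5 CPM in wild type, with a log2 fold change (SE) of -0.73 (0.34) and in edgeR an adjusted p of 0.811. inpp5d was at 22.7 ± 2.88 CPM in runx1 null and 43.6 ± 25.9 CPM in wild type, with a log2 fold change (SE) of -0.94 (0.44) and in edgeR an adjusted p of 0.811. syk was at 17.6 ± 1.41 CPM in runx1 null and 25.8 ± 9.65 CPM in wild type, with a log2 fold change (SE) of -0.55 (0.31) and in edgeR an adjusted p of 0.811. Errors of these means are SD with n = 3. These 3 genes also act in myeloid cells. The summed level of 5 matched neutrophil markers was 107 to 349 CPM in the runx1 null pools and 257 to 1424 CPM in the wild type pools. In runx1 null pool 2, mmp9 alone gave 229 of the 349 CPM. Of the 5, lyz and npsn were lower in runx1 null without overlap, as were 6.25% of all genes tested. The pools of mmp13a, mmp9 and csf3r overlapped. The part of neutrophils in the values of ptpn6, inpp5d and syk was not tested. The log2 fold change of btk, whose kinase acts beside Blnk, was -0.04 (SE 0.29), and that of plcg2, which encodes the phospholipase they activate, was -0.04 (SE 0.25).

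Among the transcription factors, 7 genes were tested and 6 were negative, with a median log2 fold change of -0.47. irf8, which acts in B cells and macrophages of mammals, was at 4.49, 8.66 and 7.38 CPM in runx1 null pools 1, 2 and 3, against 12.01, 16.97 and 15.62 CPM in wild type pools 1, 2 and 3. All runx1 null pools were below all wild type pools, with a log2 fold change (SE) of -1.12 (0.34), an edgeR adjusted p of 0.811 and an unadjusted p of 0.0135. bcl6aa, related to the germinal centre factor of mammals, stood at -0.47 on the log2 fold scale (SE 0.27, edgeR adjusted p 0.811). The log2 fold change of tcf3b, which encodes an E protein that lymphoid and other cells use, was -0.41 (SE 0.33, edgeR adjusted p 0.811).

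Plasma cell and surface genes were few. xbp1, a factor of secretory cells, was at 217 ± 55.3 CPM in runx1 null and 386 ± 250 CPM in wild type (SD, n = 3 each), and its value in runx1 null pool 3, 279 CPM, lay inside the wild type range of 201 to 671 CPM. prdm1a, whose factor drives plasma cell development in mammals, was at 1.08 CPM in runx1 null pool 3 and at 0.395 to 1.06 CPM in the wild type pools, with a log2 fold change of 0.25 and an SE of 0.51 (edgeR adjusted p 0.901). That fold change became -0.09 without wild type pool 3. The other plasma cell names on the list matched no identifier. Of the surface genes, cd22, an inhibitory receptor of B cells in mammals, was at 1.11 ± 0.61 CPM in runx1 null and 2.44 ± 0.68 CPM in wild type (SD, n = 3 each), with a log2 fold change (SE) of -1.11 (0.54) and in edgeR an adjusted p of 0.811. The log2 fold change of the activation receptor gene cd40 was -0.15 (SE 0.32, edgeR adjusted p 0.908), and it was 0.17 without wild type pool 1.

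Genes whose pattern over the pools was most like that of ighm, cd37 and blnk were sought among 13770 genes whose mean log2 CPM was 1 or more. The pattern was the mean of the standardized log2 CPM of these 3 genes, which was highest in wild type pool 2 at 1.14 and lowest in runx1 null pool 2 at -0.84. The 10 genes most like it were tmem107, rasal3, SLC6A18, SUN1, AGTRAP, ARPC5, DEF6, nlrc6, PLCB3 and evi5a. Their likeness, as a Pearson coefficient over the 6 libraries, was between 0.95 and 0.973, and it is given as a description only, since the points share libraries and depth. The pattern itself overlapped between the genotypes, with runx1 null pool 3 at 0.488 and wild type pool 1 at -0.534. None of the 10 separated the genotypes either, which follows from their choice by this pattern and is no separate result.

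The pools also differed in transcripts that mark other cells and tissues. Erythroid markers (5 matched) summed to 52460 to 63200 CPM in the runx1 null pools and 65960 to 115400 CPM in the wild type pools, with wild type pool 1 the highest. Most of the erythroid sum was hbaa1, at 43330 to 54140 CPM in runx1 null and 58090 to 89910 CPM in wild type. hbaa1 was thus lower without overlap, as were 6.25% of all genes tested. The pools of alas2, gata1a, epor and hemgn overlapped. Wild type pool 1, the lowest wild type pool for the B lineage genes, also had the lowest kidney tubule sum, 200 CPM. The 5 tubule markers summed to 860 to 1819 CPM in the runx1 null pools and 793 and 1519 CPM in the other wild type pools. Thrombocyte markers (4 matched) summed to 216 to 304 CPM in the runx1 null pools and 402 to 868 CPM in the wild type pools. Of the 4, itga2b and mpl were lower in runx1 null without overlap, as were 6.25% of all genes tested. The pools of gp1bb and nfe2 overlapped. Interrenal markers (4 matched) ranged from 7.82 to 2174 CPM in runx1 null and 4.92 to 608 CPM in wild type, oocyte markers (6 matched) from 3.05 to 121 CPM in runx1 null and 4.73 to 471 CPM in wild type, and muscle markers (6 matched) from 57.9 to 265 CPM in runx1 null and 57.5 to 213 CPM in wild type. Some marker genes were instead higher in runx1 null without overlap, as were 6.24% of all genes tested. Among T and NK markers these were lck and cd28, and cd8a, which was not tested, was higher too. Among tubule, pancreas and muscle markers they were slc12a1, amy2a, pvalb1 and pvalb2. The part of these differences in the B lineage values was not tested.

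**Figure D3:**
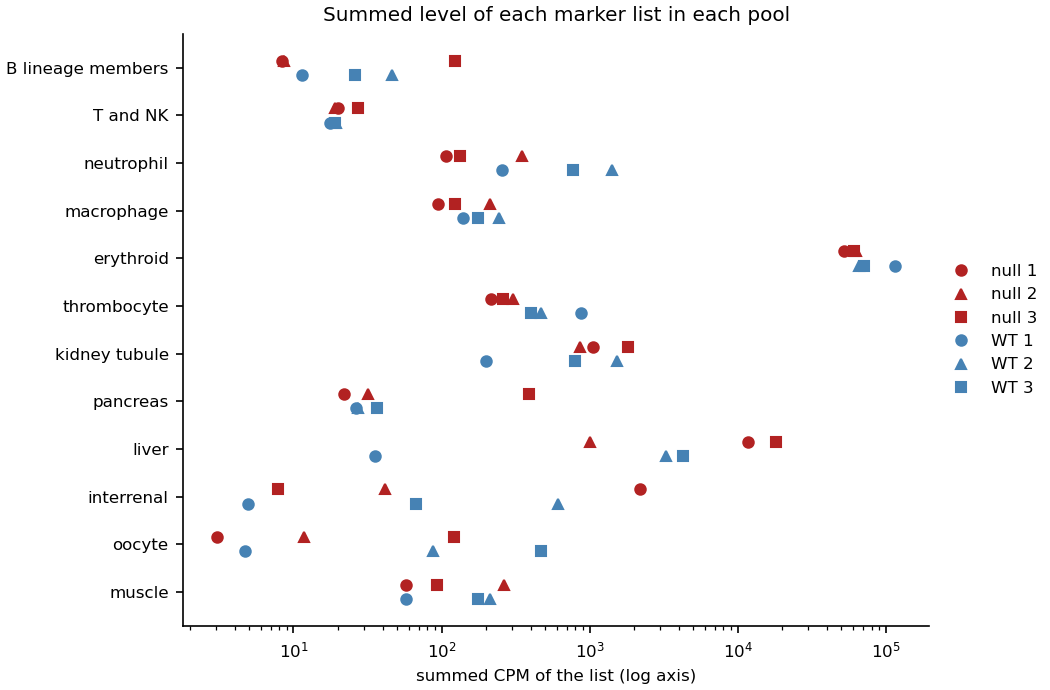
Summed CPM of each marker list (log axis) in runx1 null pools (red, above) and wild type pools (blue, below), with a symbol for each pool number. Runx1 null pool 3 stands apart for the B lineage sum, 122 CPM, most of which is ighm, and for the pancreas sum, 392 CPM.

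Leaving out 1 library at a time moved the sizes but kept the direction of cd79a, cd79b, pax5 and cd37. Log2 fold changes ran from -7.86 to -5.46 for cd79b, from -3.09 to -1.28 for cd79a, from -6.73 to -2.69 for pax5 and from -2.72 to -0.88 for cd37. Without runx1 null pool 3, an unadjusted edgeR p under 0.05 was reached by 4 of the 6 genes, ighm, cd79b, pax5 and cd37. Over all genes it was reached by 747 of 19318 in that fit. Without wild type pool 2 it was reached by 1 of the 6, beside 952 of 19508 genes. In both fits 0 genes passed the adjusted threshold.

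**Figure D4:**
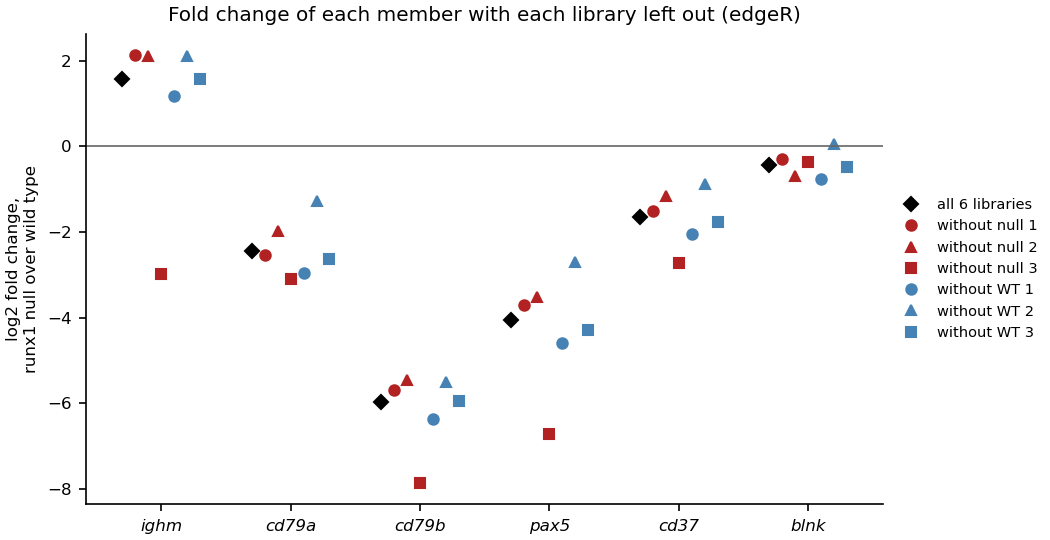
Log2 fold change of runx1 null over wild type from edgeR for each B lineage gene with all 6 libraries (black) and with each runx1 null (red) or wild type (blue) pool left out. ighm turns from 1.58 with all libraries to -2.98 without runx1 null pool 3, blnk runs from -0.763 to 0.049, and cd79a, cd79b, pax5 and cd37 are below 0 with each library left out.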

How the data were processed

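Bulk RNA-seq was made from 3 pools of 3 kidneys per genotype, grouped by sample title. The authors deposited 1 table of expected counts per library; per the submitters' processing notes, STAR 2.5.26, RSEM, DESeq2 and the build GRCz10 were used, with no role stated. Strand use and annotation release are not given in the sources used here. Symbols were known for 26433 of 32266 identifiers, and synonyms came from a RefSeq list of assembly GRCz12tu.

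Expected counts were rounded and tested with edgeR 4.0.16 in R 4.3.3: filterByExpr with a minimum count of 10, TMM, the quasi-likelihood F test with genotype as the sole term and Benjamini-Hochberg adjustment over all genes tested. The filter left 18864 genes, and 4 were added back (runx1, cd79a, cd79b and pax5). SE is the fold change over the square root of F. Intervals are exact binomial (scipy 1.17.1). The members and lists were chosen with earlier results of these data known. Genes named by rule were the members, runx1, up to 3 genes per list with the smallest p, and the 10 most like in pattern. Further genes, among them btk, plcg2, ight, single immunoglobulin segments and single marker genes, were named outside that rule. Alternatives were DESeq2 1.42.0, other scaling, filters, rounding and fits, a replicate block and each library left out. The fits were tested on data simulated for the genes past the filter, with the spread of each gene that edgeR estimated. There both tools, DESeq2 more than edgeR, made more false calls than the threshold allows.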

Additional observations from a re-analysis of the deposited data

How the results depend on the processing

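Over 15 alternatives, the counts of genes past the adjusted threshold stayed at 0 in edgeR, for all genes, for the 6 B lineage genes and for the pathway lists, and ran from 0 to 0 when 1 library was left out. The DESeq2 Wald test called 106 genes, of which 1 was a B lineage gene, cd79b (-6.27), and 2 were on the pathway lists, cd79b and rag1 (-4.40). That test, and to a lesser degree edgeR, made more false calls on simulated data than the threshold allows. The simulated data held only genes past the filter, which cd79b did not pass. At an unadjusted p under 0.05, leaving out 1 library gave 612 to 1438 of all genes and 3 to 13 of the pathway genes, both highest without wild type pool 1, and 1 to 4 of the 6 B lineage genes, highest without runx1 null pool 3. The log2 fold changes reversed for ighm with the replicate block (-0.94) and without runx1 null pool 3 (-2.985 to 2.132 over the libraries left out), for blnk without wild type pool 2 (-0.763 to 0.049), for cd40 without wild type pool 1 (-0.328 to 0.17) and for prdm1a without wild type pool 3 (-0.09 to 0.47); the cause was not tested. For the 16 other pathway genes named by smallest p, 229 of 232 values had the same direction and remained short of the threshold. Pools with the same number hold different fish. The correlations of their deviations from the group means were 0.0936, -0.364 and 0.456. For pools with different numbers they ran from -0.45 to 0.403. With 3 pools per genotype these values cannot tell whether pools of 1 number were handled together. With the replicate block 0 genes passed and 903 had an unadjusted p under 0.05. At a mean count of at least 50, named genes below it gave no value. Depth limits cd79b and pax5, whose runx1 null pools held 0 to 2 counts.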
